A study of Danio rerio with 6 samples.

Results

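The genes described here are those that copy the genome in S phase: the factors that mark and load replication origins, the MCM helicase, the sliding clamp and its loader, the replicative polymerases, the proteins that finish Okazaki fragments, and the enzymes that supply deoxynucleotides. They were chosen by name, 43 symbols in all, and each was looked up among the annotated Ensembl genes of the table, ignoring case. All 43 symbols were found, in 45 of the 34965 genes listed, because *mcm6* and *rrm2* each name 2 entries. The RNA came from dissected heads of zebrafish (*Danio rerio*, strain AB) at 36 hours post fertilization (hpf). One group was *prpf31* mutants (*prpf31*-/-, homozygous for a frameshift made by CRISPR/Cas9 in exon 2), and the other was their siblings, labelled wild type. Each group had 3 libraries, and each library was a pool of 35 heads sorted by genotyping the tails. *prpf31* encodes a protein that assembles the U4/U6/U5 tri-snRNP of the spliceosome, and the study asked how its loss alters retinal progenitors. According to the study the mutants at this age still held some Prpf31 protein, which it put down as likely to maternal deposit, so the model is one of reduced protein.

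Replication is prepared in G1, when the origin recognition complex (ORC), Cdc6 and Cdt1 load the ring of Mcm2 to Mcm7 onto DNA in an inactive form. Cdc7 kinase, Mcm10, Cdc45 and the GINS complex then turn each ring into a moving helicase at the start of S phase. Most of these genes are transcribed by E2F factors as cells pass from G1 into S, so in an embryo their transcripts are concentrated in dividing progenitors, such as those of the retina and brain, and are scarce in neurons that have left the cycle. In RNA from whole heads, fewer cells of a type and less RNA per cell cannot be told apart.

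The libraries held between 65612727 and 66381302 counts in mutants and between 58706617 and 65799306 counts in siblings. *prpf31* (ENSDARG00000095904) itself had 22.4, 24.5 and 27.3 CPM (counts scaled to library size by the TMM method) in mutants 1, 2 and 3, against 38.7, 37.9 and 37.6 CPM in the siblings, a log2 fold change of -0.62 ± 0.11 (SE, adjusted p = 0.018, edgeR, exact two-sided permutation p = 0.1, the smallest that 3 against 3 allows). Mutant 1 stood apart from the other 5 libraries. Its head identity markers, 14 genes with none at 0, summed to 46.8 FPKM (counts scaled to gene length and library size), against 144 to 156 in the other mutants and 139 to 160 in the siblings, while its 11 muscle genes summed to 47698 FPKM, against 22818 to 22914 FPKM in the other mutants and 24945 to 28676 FPKM in the siblings. The replication genes took 0.279% of all counts in mutant 1, 0.463% in mutant 2 and 0.449% in mutant 3, against 0.495%, 0.535% and 0.510% in the siblings. With TMM scaling, where mutant 1 differed less, they summed to 3417, 4535 and 4308 CPM in the mutants, against 4870, 5039 and 4793 CPM in the siblings. Most results that depend on mutant 1 are therefore given with and without it.

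In *prpf31* mutants the replication genes were mostly a little lower than in siblings, and 7 of the 45 fell by the test: *orc4*, *orc2* and *orc6* of the origin recognition complex, *mcm5* of the helicase, the clamp loader subunit *rfc1*, and *pola1* and *prim1*, the catalytic subunits of DNA polymerase alpha and of its primase. None rose, and none changed by 2-fold or more. The fitted fold change was below 0 for 37 of the 45 and above 0 for 8, with a median log2 fold change of -0.25, while the median of all genes tested was 0.02. Without mutant 1 this weakened to 28 below 0 and 17 above, with a median of -0.15, against -0.01 for all genes. The test was the quasi-likelihood F test of edgeR with Benjamini-Hochberg adjustment over all 24277 genes that passed the filter on low counts, at an adjusted p of 0.05 or lower, and all 45 entries passed the filter. By this rule 3.83% of all genes were called lower and 3.96% higher. With a fold of at least 2 as well, 1.22% of all genes were called lower and 2.12% higher. At an unadjusted p of 0.05 or lower, 15 of the replication genes were lower and 2 higher, where 12.5% and 11.8% of all genes were. With DESeq2, 10 were lower and 1, *rpa3*, higher after adjustment. That fit called 1681 of 31053 genes lower (5.41%) and 1766 higher.

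Leaving out mutant 1 raised the count to 11 lower and 3 higher, against 8.17% and 8.22% of all genes. Leaving out mutant 2 left 4 lower, against 1.61% of all genes. Leaving out mutant 3 or sibling 1 left 2 (*orc4* and *prim1*), against 0.83% and 0.75% of all genes. Leaving out sibling 2 or sibling 3 left 0, and 0 were higher in each of these 5 fits. Over the 6 fits the adjusted p of *orc4* reached at most 0.068 and that of *prim1* 0.058. Among all genes, the calls without sibling 2 or sibling 3 also fell, to 359 and 380 of both directions from 1890 with all 6 libraries. Mutant and sibling libraries of equal replicate number deviated together, and with the number as a block 10 replication genes were lower and 0 higher, against 6.61% of all genes lower in that fit.

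The spread between groups was also read directly from the libraries. For 19 of the 45 genes all 3 mutants lay below all 3 siblings, and for 2, *orc1* and *rpa3*, all 3 lay above; among all genes tested, 17.4% had mutants wholly below and 14.9% wholly above. With library totals alone as the scale, or with FPKM as deposited, no replication gene had its mutants wholly above. The matching shares of all genes on these scales were not read. *orc1* had 8.19, 12.8 and 13.4 FPKM in mutants 1, 2 and 3, against 9.04 to 9.51 FPKM in siblings. *rpa3* had 26.3, 35.8 and 33.4 FPKM in these mutants, against 25.8 to 27.2 FPKM in siblings. For both genes mutants 2 and 3 thus stayed above every sibling in FPKM, and mutant 1 did not. Between pools of the same number, 41 of the 45 were lower in mutant 1 than in sibling 1 (median log2 difference -0.48), 30 were lower in mutant 2 than in sibling 2 (-0.09) and 28 in mutant 3 than in sibling 3 (-0.21), and 27 were lower in all 3 pairs. The matching shares of all genes per pair were not read. In the fit with all libraries, a measure unlike these pair counts, 48.3% of all genes tested were below 0, against 82.2% of the replication genes. The first pair holds mutant 1, which stood apart.

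**Figure D1:**
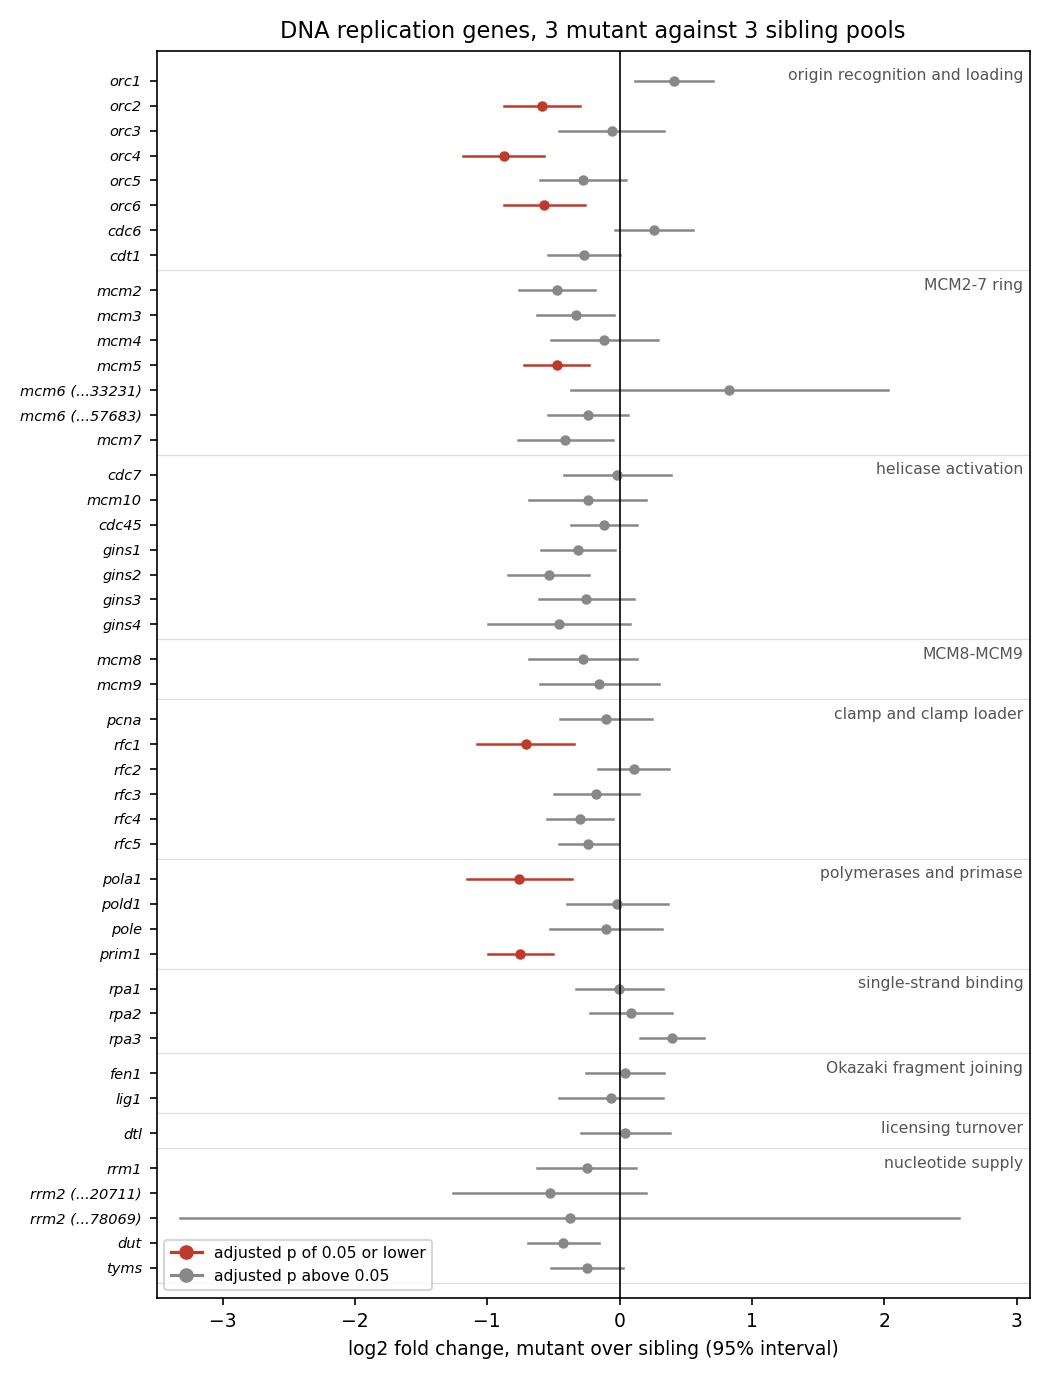
Log2 fold change of each replication gene (mutant over sibling, x axis), grouped by role, with its 95% interval from edgeR on 3 mutant and 3 sibling pools. The 7 red points passed the adjusted p of 0.05, all on the left of 0, and the entry of *rrm2* ENSDARG00000078069 has the widest interval, from -3.32 to 2.57.

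Levels can be set beside each other only per length, in FPKM. Their order therefore depends on the 1 length used for each gene, which was not checked. The range was wide: *mcm7*, a subunit of the helicase ring, was the highest at 626 ± 175 FPKM in mutants and 897 ± 42.2 FPKM in siblings (SD, n = 3 each), followed by *pcna*, the sliding clamp, at 404 ± 111 FPKM in mutants and 468 ± 22.8 FPKM in siblings. *rrm1*, the large subunit of ribonucleotide reductase, came next with 125 ± 36.8 FPKM in mutants and 160 ± 11.2 FPKM in siblings. At the low end, *mcm9*, which acts with *mcm8* in repair of broken forks, had 1.70 ± 0.58 FPKM in mutants and 2.03 ± 0.16 FPKM in siblings. The 6 subunits of the MCM ring are present once each per ring. In FPKM their transcripts spanned 15.3-fold in mutants and 14.6-fold in siblings, from *mcm2* to *mcm7*, leaving aside the second *mcm6* entry. In CPM, which leaves length out, *mcm2* averaged 240 and *mcm7* 580 in mutants, and 333 and 771 in siblings. Most of the FPKM span between these 2 genes thus came from the lengths used. By FPKM, the top 4 places in both groups went to *mcm7*, *pcna*, *rrm1* and the *rrm2* entry ENSDARG00000020711, in that order.

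**Figure D2:**
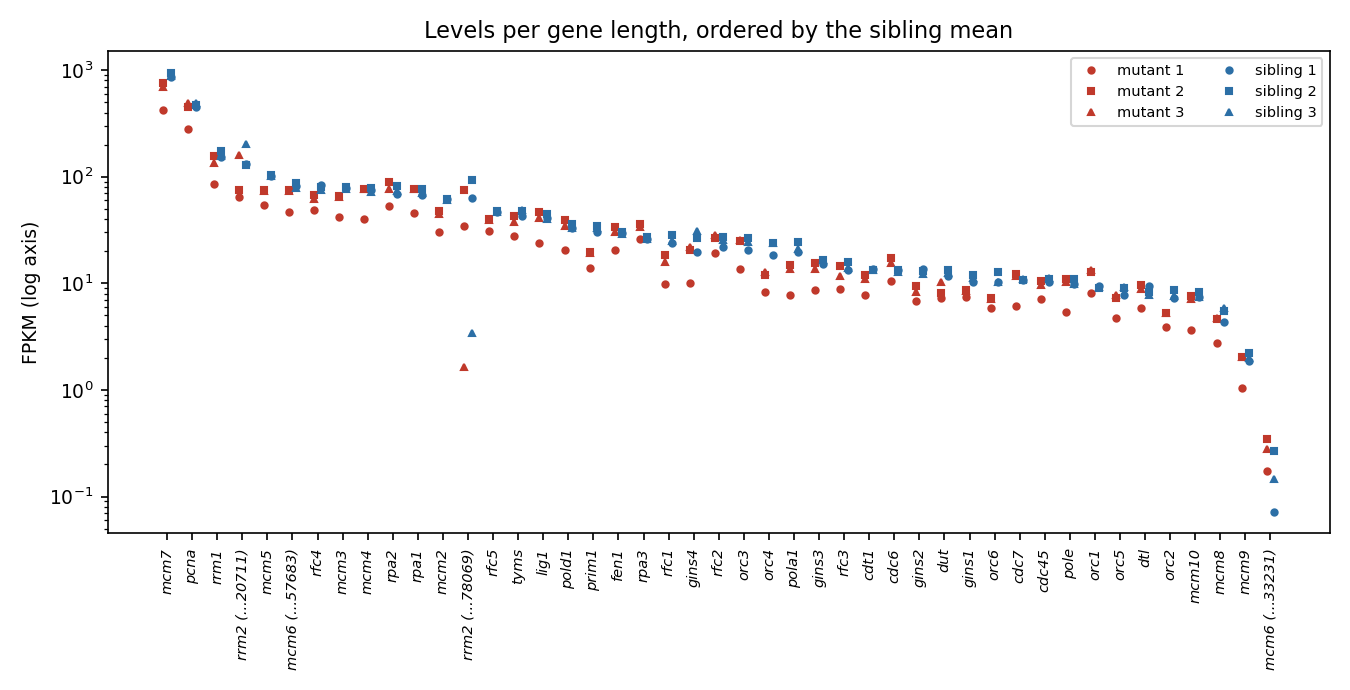
FPKM of each replication gene in each library (log axis), ordered by the sibling mean, with mutants in red and siblings in blue and 1 symbol per replicate. *mcm7* is highest at 897 FPKM in siblings, mutant 1 (red circles) often lies lowest, and the *rrm2* entry ENSDARG00000078069 drops in both libraries of replicate 3.

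Of the 8 genes that recognise origins and load the helicase, 3 fell, 0 rose, and 5 did not pass the test, with a median log2 fold change of -0.27. *orc4*, an ATP-binding subunit of ORC, had 14.3, 16.6 and 17.3 CPM in the mutants, against 25.7, 31.4 and 31.3 CPM in the siblings. The highest mutant lay well below the lowest sibling, and *orc4* averaged 54.5% of its sibling level, the largest decrease among the 45 genes (log2 fold change -0.87 ± 0.13, SE, adjusted p = 0.011, edgeR). *orc2*, a core subunit, had 7.93, 8.50 and 8.41 CPM in mutants and 11.9, 13.6 and 11.8 CPM in siblings. *orc6*, the subunit least like the others in sequence, had 9.10, 8.95 and 8.61 CPM in mutants and 12.7, 14.9 and 12.0 CPM in siblings. For both genes the mutants were tightly grouped and below every sibling, at 66.5% for *orc2* (-0.59 ± 0.12, adjusted p = 0.032) and 67.4% for *orc6* (-0.57 ± 0.13, adjusted p = 0.041).

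The remaining members of this step did not pass the test and did not share a direction. *orc1*, the subunit whose abundance follows the cell cycle in human cells, was the opposite of its partners: 29.8, 37.2 and 38.1 CPM in mutants, against 27.7, 25.2 and 25.9 CPM in siblings. All 3 mutants lay above all 3 siblings, mutant 1 only narrowly, with a log2 fold change of 0.41 (95% interval 0.12 to 0.71, adjusted p = 0.093). Without mutant 1, *orc1* rose (0.51 ± 0.08, adjusted p = 0.0081). *cdc6*, the ATPase that brings the MCM ring to ORC, was at 37.4, 49.2 and 43.3 CPM in mutants and 37.7, 36.5 and 34.3 CPM in siblings. Mutant 1 lay among the siblings and the other mutants above them, with a log2 fold change of 0.26 in all libraries (adjusted p = 0.26) and 0.35 without mutant 1 (adjusted p = 0.044). *orc5* (-0.27), *cdt1* (-0.27), which delivers the MCM ring, and *orc3* (-0.06) had intervals that reached 0, although for *orc5* and *cdt1* every mutant was below every sibling. Within a single complex, then, fitted values ran from -0.87 for *orc4* to 0.41 for *orc1*, and their 95% intervals did not overlap.

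Of the 7 entries for the MCM2-7 ring, 1 fell and 6 did not pass the test, with a median of -0.33, and 5 had every mutant below every sibling. *mcm5* had 174, 193 and 185 CPM in mutants, against 259.9, 256 and 250.4 CPM in siblings. The siblings differed by little, and each mutant lay below them, at 72.0% of the sibling level (-0.47 ± 0.11, adjusted p = 0.038, edgeR). *mcm2* was of the same size, 213, 266 and 241 CPM in mutants and 345, 331 and 323 CPM in siblings, and missed the threshold (-0.47 ± 0.12, adjusted p = 0.061). It passed without mutant 1 (-0.40 ± 0.08, adjusted p = 0.013, edgeR) and with all libraries by DESeq2 (adjusted p = 0.0098). *mcm7* had 472, 666 and 602 CPM in mutants and 769, 801 and 743 CPM in siblings, a log2 fold change of -0.41 (adjusted p = 0.16) that came to -0.29 without mutant 1, when it passed (adjusted p = 0.044).

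The other subunits were *mcm3* (-0.33, 95% interval -0.62 to -0.04), the *mcm6* entry ENSDARG00000057683 (-0.24, -0.54 to 0.06) and *mcm4* (-0.12, -0.52 to 0.29), none of which passed. *mcm4* had 148, 226 and 224 CPM in mutants and 220.1, 224 and 205 CPM in siblings, so that the value below 0 rested on mutant 1, and the log2 fold change was 0.05 without it. The second entry named *mcm6*, ENSDARG00000033231, was barely expressed, at 0.35, 0.56 and 0.44 CPM in mutants and 0.12, 0.41 and 0.23 CPM in siblings. Its groups overlapped, and its log2 fold change of 0.83 had a 95% interval from -0.37 to 2.03. Reads of the 2 *mcm6* entries could be shared between them, since how the counting treated near-identical copies is not given in the sources used here.

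All 7 genes that activate the helicase had fitted values below 0, none passed the test, and the median was -0.25. *gins2*, 1 of the 4 GINS subunits that bind the MCM ring, came closest: 7.13, 7.83 and 6.84 CPM in mutants, against 11.4, 10.5 and 9.74 CPM in siblings. The groups were apart, at 69.0% of the sibling level (-0.53 ± 0.13, adjusted p = 0.051 by edgeR, 0.043 with the replicate block, and 0.029 without mutant 1). *gins4* had 15.4, 25.3 and 26.4 CPM in mutants and 24.4, 31.6 and 36.2 CPM in siblings. Its groups overlapped, yet within each pair of equal number the mutant was the lower, and the adjusted p was 0.27 without the block and 0.041 with it (-0.46 ± 0.23 without the block). *gins1* (-0.31) and *gins3* (-0.25) did not pass, so the 4 subunits of the complex all had values below 0, with 0 of them called by edgeR with all 6 libraries unpaired, while DESeq2 called *gins2*. *cdc45*, the other partner of the ring, was within 95% limits of -0.37 to 0.13, and *mcm10* within -0.68 to 0.20. Without mutant 1 *mcm10* came to -0.06, from -0.24 with all libraries, and *gins3* to -0.14. *cdc7*, the kinase that triggers firing, had 12.9, 20.1 and 19.0 CPM in mutants and 17.9, 17.3 and 17.5 CPM in siblings. The groups overlapped, with mutant 1 the lowest and mutants 2 and 3 the highest of the 6, and the log2 fold change of -0.02 became 0.15 without mutant 1.

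The pair *mcm8* and *mcm9*, a helicase for recombination at stalled forks that is separate from the main ring, had log2 fold changes of -0.28 (95% interval -0.68 to 0.13) and -0.15 (-0.60 to 0.30). *mcm8* had 6.09, 8.17 and 8.18 CPM in mutants and 7.70, 9.44 and 10.03 CPM in siblings, and *mcm9* had 5.23, 8.17 and 8.10 CPM in mutants and 7.64, 8.54 and 7.75 CPM in siblings. Mutant 1 was the lowest library for both, the groups overlapped, and neither gene passed the test.

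Among the 6 genes of the sliding clamp and its loader, *rfc1* fell and the other 5 did not pass. *rfc1* encodes the large subunit of replication factor C, which opens the Pcna ring and places it on a primer, and it had 24.4, 36.5 and 30.6 CPM in mutants, against 47.6, 54.2 and 47.9 CPM in siblings. Every mutant was below every sibling, at 61.1% of the sibling level (-0.71 ± 0.16, adjusted p = 0.038, edgeR). The 4 small subunits did not pass. *rfc4* (-0.30, 95% interval -0.55 to -0.05) and *rfc5* (-0.24, -0.46 to -0.01) had their groups apart, *rfc3* was at -0.18 (-0.50 to 0.15), and *rfc2* was at 0.11 (-0.16 to 0.37), the last turning to -0.01 when library totals alone set the scale. *rfc2* had 25.7, 28.5 and 29.5 CPM in mutants and 23.6, 27.9 and 26.3 CPM in siblings, which overlap. *pcna* itself had 493, 632 and 677 CPM in mutants and 633, 636 and 667 CPM in siblings. Mutant 1 was well below the other 5 libraries, mutant 3 was the highest of the 6, and the log2 fold change was -0.10 (95% interval -0.45 to 0.24) with all libraries and 0.01 without mutant 1.

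Among the 4 polymerase and primase genes, the 2 of the enzyme that starts each new strand fell, and the 2 that extend the strands did not pass the test. These 4 are catalytic subunits only, and *pold2*, the second subunit of polymerase delta, fell among the further genes read below. *prim1*, which makes the RNA primer, had 22.4, 25.3 and 24.2 CPM in mutants, against 38.5, 42.2 and 40.1 CPM in siblings. Both groups were tight and clearly apart, at 59.5% of the sibling level, and this was the smallest adjusted p among the 45 genes (-0.75 ± 0.10, adjusted p = 0.0081, edgeR). *pola1*, which adds the first stretch of DNA to that primer, had 49.2, 74.9 and 67.2 CPM in mutants and 100.2, 119.8 and 103 CPM in siblings. Mutant 1 was the lowest, but mutants 2 and 3 were also below every sibling, and *pola1* averaged 59.2% of the sibling level (-0.76 ± 0.17, adjusted p = 0.039).

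*pold1*, the catalytic subunit of polymerase delta on the lagging strand, had 89.1, 138 and 117 CPM in mutants and 116, 121 and 111 CPM in siblings. *pole*, the catalytic subunit of polymerase epsilon on the leading strand, had 47.0, 76.4 and 70.3 CPM in mutants and 68.9, 73.3 and 65.7 CPM in siblings. For both, mutant 1 was the lowest library and mutant 2 the highest. Their log2 fold changes were -0.02 (95% interval -0.40 to 0.37) for *pold1* and -0.10 (-0.52 to 0.32) for *pole*, and without mutant 1 they were 0.13 and 0.07. The 95% interval of *prim1*, from -0.99 to -0.51, did not overlap that of *pold1*, while the intervals of *pola1* (-1.15 to -0.36) and *pole* did overlap. Differences between these genes were not tested.

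**Figure D3:**
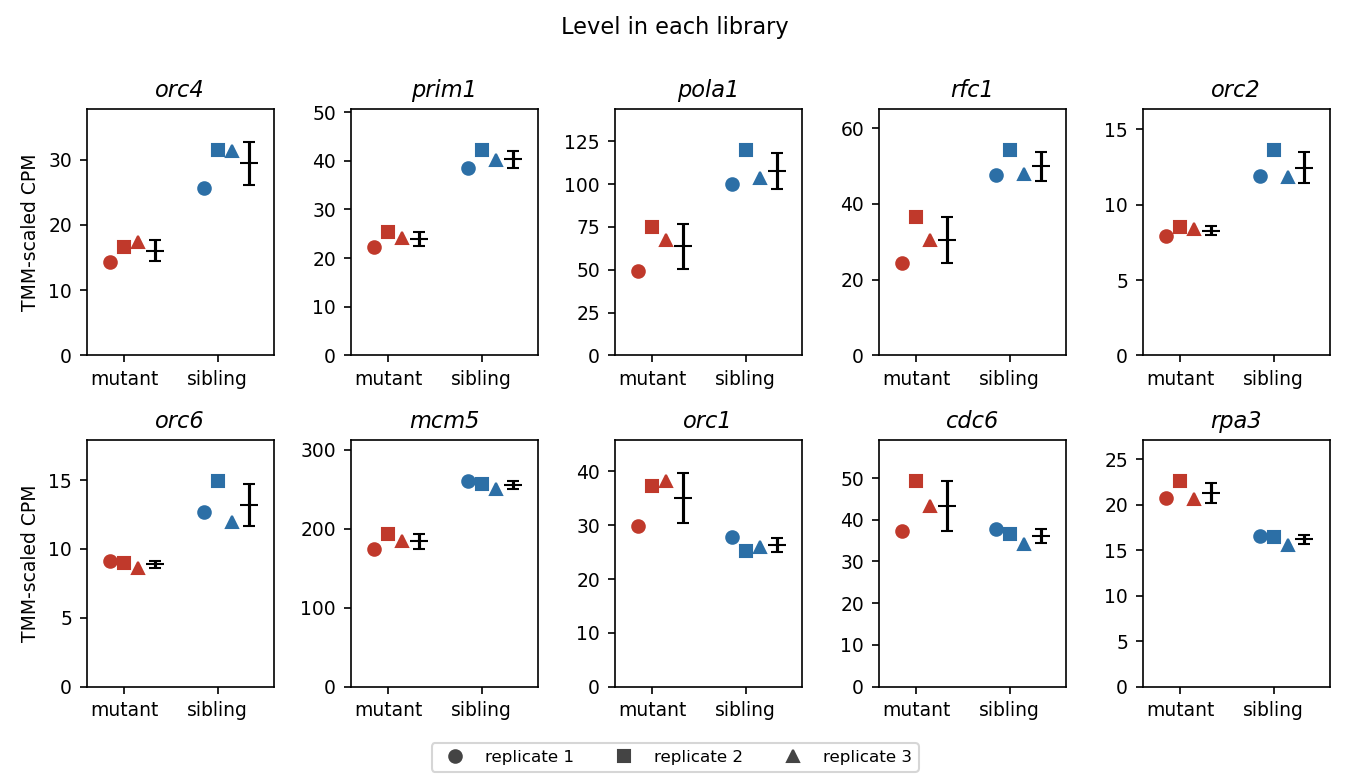
TMM-scaled CPM of the 7 genes that fell and of *orc1*, *cdc6* and *rpa3*, per library, with mutants on the left in red and siblings on the right in blue; symbols mark the replicate number, and black bars are the mean ± SD (n = 3 each, axes from 0). The mutants of *orc4* to *mcm5* lie below every sibling, those of *orc1* and *rpa3* above every sibling, and mutant 1 of *cdc6* among the siblings.

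Replication protein A (RPA) coats single-stranded DNA, and none of its 3 genes passed the test: *rpa1* was at 0.00 (95% interval -0.33 to 0.33), *rpa2* at 0.09 (-0.23 to 0.40), turning to -0.03 with library totals alone, and *rpa3* at 0.40 (0.15 to 0.64). *rpa3*, the smallest subunit, had 20.7, 22.6 and 20.6 CPM in mutants, against 16.5, 16.5 and 15.6 CPM in siblings. Every mutant was above every sibling, and the adjusted p was 0.062 by edgeR, 0.022 without mutant 1, and 0.023 with DESeq2. *rpa1* had 135, 184 and 178 CPM in mutants and 162, 175 and 160.0 CPM in siblings, with mutant 1 lowest and the other mutants highest. The interval of *rpa3* lay above 0, and those of the 7 genes that fell lay below 0. Those 7 were picked by the test as lower, so the lack of overlap follows from that choice.

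*fen1*, the nuclease that trims the flap between Okazaki fragments, had 58.4, 77.2 and 67.8 CPM in mutants and 68.3, 65.7 and 63.8 CPM in siblings. *lig1*, the ligase that seals them, had 104, 162 and 141 CPM in mutants and 144, 149 and 133 CPM in siblings. Both overlapped, with log2 fold changes of 0.04 (95% interval -0.25 to 0.34) and -0.07 (-0.46 to 0.33), and that of *fen1* was -0.07 with library totals alone. *dtl* encodes the receptor of the ubiquitin ligase that removes Cdt1 once Pcna is on DNA, and it had 17.1, 22.3 and 20.0 CPM in mutants and 21.8, 18.6 and 17.3 CPM in siblings, which overlap. Its log2 fold change was 0.04 (95% interval -0.29 to 0.38), and -0.07 with library totals alone.

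All 5 entries for nucleotide supply had fitted values below 0, with a median of -0.38, and none passed the edgeR test with all 6 libraries unpaired, while DESeq2 called *dut*. The median is the value of the *rrm2* entry ENSDARG00000078069, whose 95% interval ran from -3.32 to 2.57. *dut*, which removes dUTP so that uracil is not built into DNA, had 44.8, 39.5 and 48.8 CPM in mutants, against 57.3, 62.8 and 58.7 CPM in siblings, with the groups apart (-0.43 ± 0.12, adjusted p = 0.070, edgeR, without mutant 1, -0.44 ± 0.11 and adjusted p = 0.037). *tyms*, which makes dTMP from dUMP, also had its groups apart by a small margin, the highest mutant at 52.1 CPM and the lowest sibling at 52.3 CPM (-0.25, 95% interval -0.52 to 0.02). *rrm1*, the large subunit of ribonucleotide reductase, had 304, 448 and 378 CPM in mutants and 438, 477 and 427 CPM in siblings. Its groups overlapped through mutant 2, at a log2 fold change of -0.25 (-0.62 to 0.13), which came to -0.12 without mutant 1.

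*rrm2* encodes the small subunit, whose supply limits the enzyme to S phase, and the name covers 2 entries with an unusual pattern. The entry ENSDARG00000078069 had 2651, 5905 and 126 counts in mutants 1, 2 and 3, and 4379, 6710 and 264 counts in siblings 1, 2 and 3. It gave 29.7%, 44.8% and 0.80% of the summed *rrm2* counts in the mutants, against 27.8%, 36.2% and 1.32% in the siblings. The share followed the replicate number and not the genotype: both pools of replicate 3 were nearly without it. Meanwhile the entry ENSDARG00000020711 was highest in replicate 3, at 228 CPM in the mutant and 283 CPM in the sibling, against 107 to 117 CPM in the other mutants and 180.3 to 190.0 CPM in the other siblings. Among genes with at least 100 counts in each of the other 4 libraries, 6 of 16423 were at least 10-fold below all of those in both pools of replicate 3, whereas 0 of 17124 were so in replicate 1 and 0 of 16470 in replicate 2.

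Because reads may be exchanged between the 2 entries, their counts were also summed. The sum was 166, 194 and 230.1 CPM in mutants, against 263, 283 and 287 CPM in siblings, with every mutant below every sibling. The SD between pools was 31.9 CPM in mutants and 12.5 CPM in siblings, while for the entry ENSDARG00000020711 alone it was 67.2 CPM in mutants and 56.6 CPM in siblings. The summed *rrm2* stood at 71.0% of the sibling level (-0.50 ± 0.14, adjusted p = 0.080, edgeR, 0.042 with the replicate block). The entry ENSDARG00000020711 alone had a log2 fold change of -0.53 ± 0.31 (adjusted p = 0.35, 0.032 with the replicate block), and the entry ENSDARG00000078069 had one of -0.38, with an interval from -3.32 to 2.57 that leaves its direction undetermined.

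**Figure D4:**
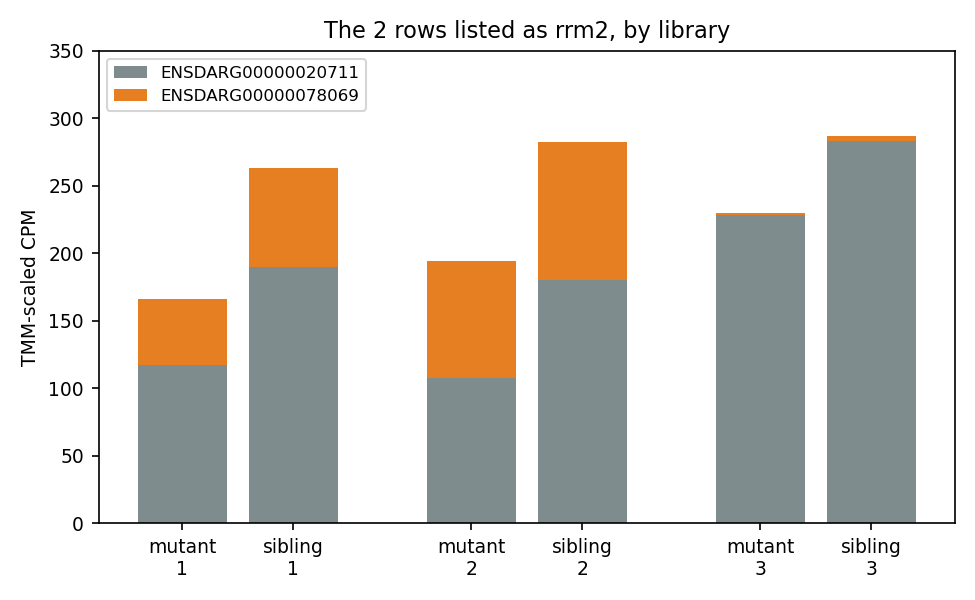
TMM-scaled CPM of the 2 entries named *rrm2* in each library, stacked, in pairs of equal replicate number with the mutant left of the sibling. The orange part is nearly missing in both libraries of replicate 3 (0.80% and 1.32% of the counts), and in each pair the mutant total is below the sibling total.

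Mutant 1 was below both other mutants in 36 of the 45 replication genes, while this held for 44.8% of all genes tested. Its replication genes differed from the mean of mutants 2 and 3 by -0.31 in the median (log2), against -0.04 over all genes. Without mutant 1 the median fold change of the 45 genes was -0.15 and 28 were below 0. The calls were then 11 lower and 3 higher, where 8.17% of all genes were lower and 8.22% higher. The 7 genes that fell with all libraries were among the 11, and the additions were *mcm2*, *mcm7*, *gins2* and *dut*; those higher were *orc1*, *cdc6* and *rpa3*. *orc4* was the lowest of the 45 in both fits, at -0.87 with all libraries and -0.81 without mutant 1. With all libraries *pola1* (-0.76), *prim1* (-0.75) and *rfc1* (-0.71) came next, and without mutant 1 *prim1* (-0.71), *pola1* (-0.61), *orc6* (-0.60) and *rfc1* (-0.58) did. *gins4* was at -0.46 with all libraries and at -0.26 without mutant 1, where *gins1* was at -0.37. Without mutant 1 the role medians were -0.38 for nucleotide supply, -0.27 for polymerases and primase, -0.25 for the MCM2-7 ring, -0.19 for origin recognition and loading, -0.17 for the clamp and loader, -0.14 for the helicase activators and -0.07 for *mcm8* and *mcm9*. Those of the 3 RPA genes (0.17) and of *fen1* and *lig1* (0.11) were above 0, as was *dtl* (0.13). The nucleotide supply median was the value of the *rrm2* entry ENSDARG00000020711 (-0.38 ± 0.32, SE). *rrm1* was at -0.12, *tyms* at -0.20, *dut* at -0.44 and the other *rrm2* entry at -0.44.

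**Figure D5:**
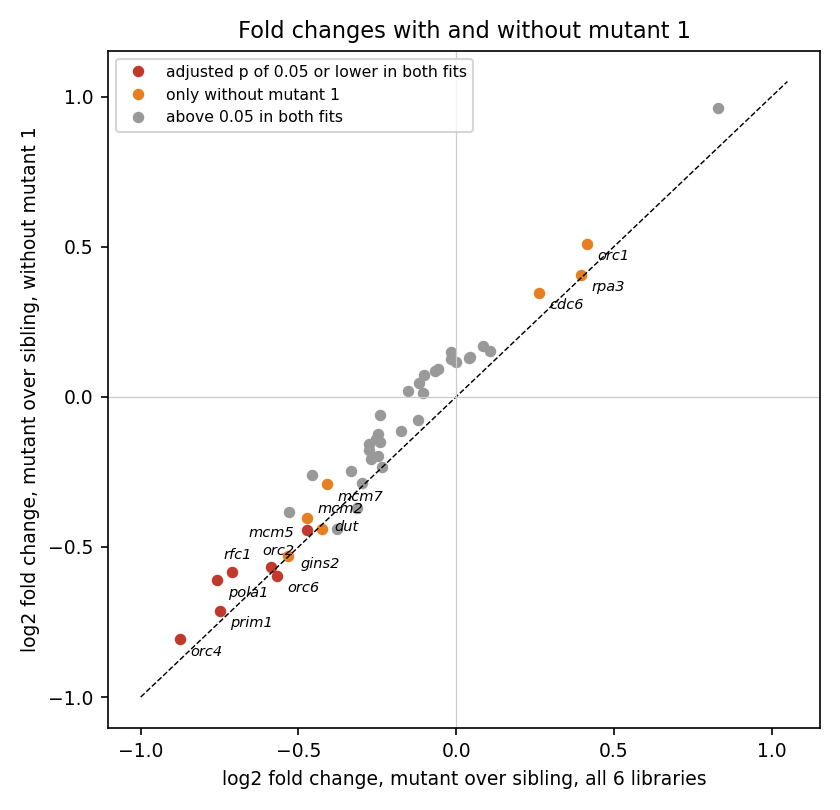
Log2 fold change (mutant over sibling) of each replication gene with all 6 libraries (x axis) and without mutant 1 (y axis); the dashed line marks equal values. The 7 red genes passed the test in both fits, the orange ones passed without mutant 1 only (*orc1*, *cdc6* and *rpa3* above 0), and most points lie above the line.

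The summed markers of neural progenitors and of post-mitotic neurons were lower in every mutant than in every sibling, and lowest in mutant 1. Single progenitor markers did not share a direction, with 14 below 0 and 6 above in the fit with all libraries. The 20 entries for neural progenitor markers, none at 0, summed to 568 FPKM in mutant 1 and 1146 to 1230 FPKM in the other mutants, against 1352 to 1504 FPKM in siblings. With all libraries 4 fell and 0 rose: *her4.1*, the *fabp7* entry ENSDARG00000007697 and both entries of *hes6*, a Notch target, a glial and progenitor lipid carrier, and a promoter of neurogenesis. The other *fabp7* entry did not pass. Of all genes, 3.83% were called lower and 3.96% higher with all libraries, and 8.17% and 8.22% without mutant 1. Without mutant 1, 6 of these 20 fell and 5 rose. The 5 were *rx1*, *notch3*, both entries of *notch1* and the *pax6* entry ENSDARG00000103379. Single entries weighed on the sums. The *fabp7* entry ENSDARG00000007697 had 173 and 179 FPKM in mutants 2 and 3, against 325 to 409 FPKM in siblings. *notch3* had 143 and 148 FPKM in these mutants, against 88.1 to 102 FPKM in siblings. The 23 entries for post-mitotic neurons, none at 0, summed to 533 FPKM in mutant 1 and 970 to 1021 FPKM in the others, against 1245 to 1367 FPKM in siblings. Of these, 3 fell and 0 rose (*tubb5*, the *stmn1* entry ENSDARG00000033655 and *nsg2*), or 7 and 0 without mutant 1. The other *stmn1* entry did not pass with all libraries. The progenitor list had a median of -0.40 and the neuron list one of -0.38 (log2), against -0.25 for the replication genes, and without mutant 1 these medians were -0.17, -0.17 and -0.15. Of the entries for head identity (14), trunk identity (13), muscle (11), erythroid cells (7) and leukocytes (7), 0 were called with all libraries, and of 8 for epidermis 1, *cdh1*, rose. Without mutant 1 the median of the trunk genes turned to -0.47, against 0.19 with it, and 4 fell. That of the muscle genes turned to -0.37, against 0.36 with it, and 3 fell. Among the head identity genes 2 fell and 2 rose, with a median of -0.13, against -0.44 with mutant 1. The part of these cell types in the lower replication transcripts was not tested.

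Of the replication genes, 6 stand in the study's list of exons changed in the mutants: *cdc7*, *rfc1*, *mcm8*, *pola1*, *dtl* and *mcm9*. That list was drawn from these same libraries and is not independent evidence. The study also tested chosen events by semi-quantitative RT-PCR and lists primers for *cdc7* and *dtl*, but those results were not used here. Of the 6, *rfc1* and *pola1* fell in total level and the other 4 did not pass, with a median log2 fold change of -0.21, and of the remaining 39 entries 5 fell, with a median of -0.25. By the same test 3.83% of all genes were lower. Counts per gene do not show which exons were included.

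Genes that work beside the 45 were read from separate lists. Of all genes, 3.83% were called lower and 3.96% higher with all libraries, and 8.17% and 8.22% without mutant 1. Of 34 further replication factors, 3 fell and 0 rose, with a median log2 fold change of -0.23, while without mutant 1, 3 fell and 3 rose, with a median of -0.14. They were *top2a*, the topoisomerase that untangles sister chromatids, at 139, 198 and 175 CPM in mutants and 281, 307 and 292 CPM in siblings (-0.78 ± 0.15, adjusted p = 0.024), *rnaseh2a*, which removes RNA from DNA (-0.60, adjusted p = 0.034), and *pold2*, the second subunit of polymerase delta (-0.53, adjusted p = 0.047). The partner genes thus differed within polymerase delta, with *pold2* lower and *pold1* at -0.02, but their 95% intervals overlapped (-0.83 to -0.24 and -0.40 to 0.37). Of 13 genes for chromatin assembly behind the fork, 1 fell, *cdca7*, a partner of the remodeller Hells (-0.59, adjusted p = 0.020), and 0 rose, with a median of -0.19. Without mutant 1, 1 fell and 1 rose, with a median of -0.10. Leaving out mutant 3 or any single sibling left 0 of the 108 genes in the 4 lists called lower, where 0.44% to 0.83% of all genes were.

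Among 21 further genes of nucleotide supply, 1 fell and 2 rose, with a median of 0.06, and without mutant 1, 1 fell and 4 rose, with a median of 0.07. The share that fell with all libraries, 4.76%, was near the 3.83% of all genes. *dck*, the salvage kinase of deoxycytidine, had 2.46, 3.79 and 3.69 CPM in mutants, against 7.57, 5.39 and 6.61 CPM in siblings (-0.98 ± 0.22, adjusted p = 0.041). The mitochondrial thymidine kinase *tk2* (0.55, adjusted p = 0.044) and the *ctps1* entry ENSDARG00000098386, for CTP synthase (1.01 ± 0.19, adjusted p = 0.024), rose.

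Among 40 regulators of the step from G1 to S, 4 fell and 2 rose, with a median of -0.05. Without mutant 1, 9 fell and 11 rose, with a median of 0.05. The 4 that fell were *e2f3* (-0.60, adjusted p = 0.0499), its partner *tfdp1* (entry ENSDARG00000016304, -0.50, adjusted p = 0.041), *lin54* (-0.50, adjusted p = 0.041), a subunit of the complex that pairs with E2F or Myb factors, and the inhibitor *cdkn1b* (entry ENSDARG00000054271, -0.49, adjusted p = 0.034). The 2 that rose restrain the entry into S phase and changed far more than any of the 45 replication genes. *cdkn1a*, the p21 inhibitor of cyclin-dependent kinases and a p53 target, had 37.8, 59.5 and 58.2 CPM in mutants, against 5.74, 4.66 and 10.8 CPM in siblings (2.87 ± 0.34, adjusted p = 0.0044). *rbl2*, a pocket protein that represses E2F targets, had 69.7, 265 and 237 CPM in mutants, against 14.4, 13.8 and 15.9 CPM in siblings (3.70 ± 0.47, adjusted p = 0.0060). Both groups were far apart, and both genes kept an adjusted p of at most 0.047 when any 1 library was left out. With the replicate block 18 of the 108 genes in all 4 lists were lower and 6 higher, against 9 and 4 without it. Of all genes, 6.61% were lower and 1479 of 24277 higher with the block, against 3.83% and 3.96% without it.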

How the data were processed

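Poly(A) RNA of 3 mutant and 3 sibling pools of 35 heads was sequenced. Per the submitters' processing notes, the authors aligned reads to GRCz11 with HISAT2 2.0.4 and counted with HTSeq 0.9.1, while the paper's methods also name featureCounts; strand use and annotation are not given in the sources used here. The deposited counts are whole fragments per gene without normalization, and the deposited FPKM follow from those counts with 1 length per gene (22043 genes with at least 10 counts in every library, largest relative deviation 4e-08).

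Low counts were removed by filterByExpr, TMM set the scale, and edgeR 4.0.16 (R 4.3.3) gave the test, with no covariate and Benjamini-Hochberg adjustment; the script was tested on simulated data. TMM factors were 0.816 for mutant 1 and 1.02 to 1.06 for the others. SE is the log2 fold change over the root of F, intervals are 95%, and the biological coefficient of variation was 0.243, so spread between pools more than counting error set the precision. Nothing says that the pools came from separate clutches, so p-values measure the spread between these pools.

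Alternatives were DESeq2 1.42.0, RLE scaling, library totals alone, the full table unfiltered, a minimum of 10 counts per library, limma 3.58.1 on log2(FPKM + 1) and log2(FPKM + 0.1) with at least 0.5 FPKM in 3 libraries, log2(FPKM + 1) without a filter, the replicate block and each library left out. Deviations from the group mean correlated positively between mutant and sibling libraries of equal number (r = 0.36, 0.35 and 0.45 over 22043 genes), so the numbers were taken to pair the pools. Those of unequal number had r from -0.27 to -0.097. Values below 0 there follow from centring each group on its own mean and are not separate evidence of pairing. Summing the *rrm2* entries and FPKM for group overlap were added after seeing the data.

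The members, lists and tests were chosen with earlier results of these data known. Any of the 43 may be named. Values per library were planned for genes that passed, the 6 smallest p and the extremes of each role. Those of *cdc6*, *mcm2*, *mcm4*, *mcm7*, *gins4*, *pcna*, *pole*, *dut*, *rrm1* and the *rrm2* entry ENSDARG00000078069 were added after they were seen. Genes outside the 43 are those that passed in a list, and the progenitor markers that rose without mutant 1. A planned search of promoters for motifs was not run, as no promoter sequence was used here. Tables and plots were made with pandas 2.3.3, matplotlib 3.10.9 and numpy 2.4.6 in Python 3.11.15, and the permutation test with scipy 1.17.1.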

Additional observations from a re-analysis of the deposited data

How the results depend on the processing

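Precision was limited by 3 pools a group: 38 of the 45 replication genes were not called, and the 95% intervals of these 38, except for the *rrm2* entries and the *mcm6* entry ENSDARG00000033231, stayed inside a 2-fold change, from -0.99 to 0.71 on the log2 scale. The 7 genes that fell were called again under RLE scaling, without a filter, with at least 10 counts in every library, and with the *rrm2* entries summed. Fewer were called with library totals alone (2, which also moved the median of all genes to -0.11), and with limma on log2(FPKM + 1) (3), on log2(FPKM + 0.1) (2, of which 1 at 2-fold or more) and on log2(FPKM + 1) without a filter (1); *prim1* was among them in each of these. Of all genes, 2.14% were lower with library totals alone, and 3.50%, 2.98% and 1.08% in the limma fits in the order above. DESeq2 called 10 lower and 1 higher, against 5.41% of all genes lower. Replication genes with mutants wholly above siblings fell from 2 to 0 with library totals alone and with FPKM, where the shares of all genes were not read. Leaving out each library in turn gave 0 to 11 lower, 0 to 3 higher and medians from -0.32 to -0.15. The replicate block added *gins2*, *gins4* and the *rrm2* entry ENSDARG00000020711 for 10 lower and a median of -0.26, and changed no other call of the 45. The cause of each of these shifts was not tested.

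In the 4 lists of further genes, calls lower and higher were 15 and 8 with DESeq2, 2 and 3 with library totals alone, 3 and 3 with limma on log2(FPKM + 1), 2 and 3 on log2(FPKM + 0.1), 1 and 1 without a filter, 18 and 6 with the replicate block, and 0 to 14 and 2 to 19 over the libraries left out. Of all genes, 5.41%, 2.14%, 3.50%, 2.98%, 1.08% and 6.61% were lower in these fits, and 0.44% to 8.17% over the libraries left out. Those higher were 1766 of 31053, 400 of 24277, 438 and 418 of 20705, 337 of 31067 and 1479 of 24277, in the same order. Over the libraries left out, 247 of 24867 to 2040 of 24821 were higher. *prpf31* kept its direction and missed the threshold with library totals alone (-0.74), with limma on log2(FPKM + 0.1) (-0.76), on log2(FPKM + 1) without a filter (-0.73) and without mutant 2 or any single sibling (-0.70 to -0.56 over all 6 fits).

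Values near 0 changed sign. With library totals alone, limma on log2(FPKM + 1), on log2(FPKM + 0.1) and on log2(FPKM + 1) without a filter, in that order, *rfc2* was at -0.015, -0.027, -0.029 and -0.027, *rpa2* at -0.029, -0.057, -0.058 and -0.057, *fen1* at -0.071, -0.099, -0.10 and -0.099, *dtl* at -0.067, -0.081, -0.093 and -0.081, and the median of further nucleotide supply genes at -0.076, -0.076, -0.077 and -0.055. *rpa1* was at 0.0042 with DESeq2, 0.0090 with RLE scaling and 0.0054 with at least 10 counts in every library. Leaving out each library gave ranges of -0.15 to 0.094 for *orc3*, -0.22 to 0.047 for *mcm4*, -0.14 to 0.15 for *cdc7*, -0.26 to 0.020 for *mcm9*, -0.20 to 0.011 for *pcna*, -0.17 to 0.13 for *pold1*, -0.24 to 0.073 for *pole*, -0.083 to 0.12 for *rpa1*, -0.032 to 0.17 for *rpa2*, -0.063 to 0.13 for *fen1*, -0.21 to 0.085 for *lig1*, -0.052 to 0.15 for *dtl*, -1.23 to 0.26 for the *rrm2* entry ENSDARG00000078069, and -0.12 to 0.051 for the median of the G1 to S genes.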
